A study of Mus musculus with 8 samples.

Results

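Transforming growth factor beta (TGF-beta) signalling was followed through 8 genes, taken as the rows that carry their symbols among the 32285 genes of the count tables: the ligands Tgfb1, Tgfb2 and Tgfb3, the receptors Tgfbr1, Tgfbr2 and Tgfbr3, the latent binding protein gene Ltbp1 and the inhibitory Smad gene Smad7. Each symbol matched 1 row. On GRCm38.p6, Tgfb1 spans chr7:25687002-25705077, Tgfb2 chr1:186622787-186709697, Tgfb3 chr12:86056743-86079041, Tgfbr1 chr4:47353222-47414926, Tgfbr2 chr9:116087695-116175363, Tgfbr3 chr5:107106567-107289629, Ltbp1 chr17:75005480-75392512 and Smad7 chr18:75367365-75395935. The hearts came from male wild-type C57BL/6J mice that were 8 weeks old at the start and underwent transverse aortic constriction (TAC), a surgical narrowing of the aorta that overloads the left ventricle with pressure. They were examined 2 weeks (TAC-2w), 4 weeks (TAC-4w) or 6 weeks (TAC-6w) later, and the sham mice had the same operation without the ligature. Where 4 values follow each other they stand for sham and then the 3 TAC times in order, and 3 values stand for the TAC times. Each of the 4 conditions had 1 heart section for spatial transcriptomics (ST) and 1 single-cell library, and the labels do not say how many animals stand behind a library. The questions put to the data were which cells carry the mRNA of each ligand and receptor, and how the levels stood after TAC.

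TGF-beta ligands are secreted in a latent form, bound to a propeptide and to a latent binding protein such as LTBP1 that anchors them in the extracellular matrix. Once released, a ligand binds the TGFBR2 receptor, which recruits and activates TGFBR1, and the co-receptor TGFBR3 (betaglycan) helps to present the ligand, TGF-beta 2 above all. The activated receptor phosphorylates SMAD2 and SMAD3. SMAD7 is induced by the pathway and blocks it at the receptor. In the pressure-overloaded heart the pathway is best known for driving fibroblasts to lay down collagen and other matrix.

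Tgfb1 and Tgfb2 differed most plainly in the cells that carried them, as described further on. The 250 bases before the transcript start listed for each are therefore shown side by side. The sequences are from RefSeq on GRCm38.p6, written 5′ to 3′ on the strand of the gene, with capitals on every match to 5 searched motifs. These were the GC box (GGGCGG or CCGCCC), the TATA box (TATAAA or TTTATA), the Smad-binding core (CAGAC or GTCTG), the cAMP response element (TGACGTCA, its own reverse complement) and the AP-1 site (TGACTCA or TGAGTCA), each searched on both strands. The Tgfb1 window is chr7:25686752-25687001, plus strand, and the Tgfb2 window is chr1:186705990-186706239, minus strand. The Tgfb1 window ends just before the gene span given above. The Tgfb2 window lies inside the span of its gene, so its listed start is not the outer end of that span.
Tgfb1: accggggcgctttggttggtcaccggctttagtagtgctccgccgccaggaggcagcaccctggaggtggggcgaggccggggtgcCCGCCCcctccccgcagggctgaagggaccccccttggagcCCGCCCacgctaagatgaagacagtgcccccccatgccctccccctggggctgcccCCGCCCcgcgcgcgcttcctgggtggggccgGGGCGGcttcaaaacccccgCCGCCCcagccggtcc
Tgfb2: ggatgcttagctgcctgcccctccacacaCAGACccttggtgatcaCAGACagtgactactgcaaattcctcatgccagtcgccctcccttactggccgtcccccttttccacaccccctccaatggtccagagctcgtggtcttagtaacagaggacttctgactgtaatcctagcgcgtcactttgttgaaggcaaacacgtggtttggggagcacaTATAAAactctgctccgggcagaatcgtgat
The Tgfb1 window was 75.2% G and C and held 5 GC boxes and no match to the other 4 motifs. The Tgfb2 window was 53.6% G and C, had no GC box, and held 1 TATA box and 2 Smad-binding cores. Over the 32851 windows of the same length in the RefSeq table, 32.7% held a GC box, 12.4% a TATA box, 42.2% a Smad-binding core, 1.55% a cAMP response element and 4.46% an AP-1 site. The first of the 2 listed Tgfbr1 windows held 2 GC boxes, the Tgfbr2 window 1 Smad-binding core, and the first of the 2 Ltbp1 windows 1 cAMP response element and 1 Smad-binding core. That Ltbp1 window runs partly into the gene span given above. Windows for Tgfb3 and Tgfbr3 were not used here. A match describes the letters only.

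The sections held 1228 to 2193 spots with 25996378 to 48754396 unique molecular identifiers (UMIs, which count captured mRNA molecules), and the libraries held 5399 to 7965 kept cells after removal of 178 to 263 likely doublets. A level is the number of UMIs of a gene for every 1000000 UMIs of the section or of the summed cells (CPM). The reads come from the 3′ ends of mRNAs, so levels are compared between cells or sections and not between genes. The share of mitochondrial UMIs was 51.5% in the sham section and 42.2% to 44.2% in the TAC sections. The median kept cell had 9131 UMIs in sham and 10717, 4449 and 4743 in the TAC libraries. Pairs of libraries shared 9 to 30 cell barcodes. Cells were named from markers, as "-like", in 14 classes. The TAC-4w library stood apart in its make-up, with 431 fibroblast-like and 186 macrophage-like cells against 2874 or more and 912 or more in each other library, and with 2428 B cell-like, 1254 neutrophil-like and 552 platelet-like cells. Cardiomyocyte-like cells numbered 10 to 107 per library and were led by the atrial genes Sln and Myl7, and no cluster was pericyte-like. The sections of sham and TAC-2w shared a batch by the labels and so did the libraries of sham and TAC-6w, whereas every other comparison with sham crossed batches. A batch and a condition cannot be told apart there.

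The source cells of Tgfb1 differed from those of Tgfb2 and Tgfb3. Tgfb1 was carried by all 14 classes, with the highest median levels in platelet-like and monocyte-like cells and the lowest in red blood cell-like cells (12.4 and 17.3), whereas Tgfb2 and Tgfb3 had their levels mainly in smooth muscle cell-like, fibroblast-like and, for Tgfb2, endothelial-like cells. The Tgfb1 level was 445 CPM in the platelet-like cells of sham (29 UMIs) and 484 in those of TAC-4w, the other libraries having too few such cells for a level. Next came monocyte-like cells, with 206 in TAC-2w and 264 in TAC-4w. Dendritic cell-like cells had 127 in sham, 131 in TAC-2w and 216 in TAC-6w, and macrophage-like cells 111, 115, 138 and 148. The platelet-like range lay above those of all other classes, and the monocyte-like, dendritic cell-like and macrophage-like ranges overlapped in that order. Platelet-like cells were small, with a median of 927 UMIs, and their leading genes were Ppbp, Clec1b, Nrgn, Gp9 and Treml1.

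Fibroblast-like cells carried Tgfb1 at 65.9, 59.3, 55.9 and 151. The value of TAC-6w stood apart from the other 3. Fibroblast-like cells made up 56.3%, 51.2%, 6.60% and 53.2% of the kept cells and held 57.2%, 47.7%, 8.73% and 71.9% of all Tgfb1 UMIs. Macrophage-like cells held 24.2%, 33.0%, 4.93% and 13.1% of them. Of the Tgfb2 UMIs, fibroblast-like cells held 90.1%, 91.5%, 82.1% and 96.5%, so the ligands differed in how far they were spread over classes.

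Tgfb2 had its highest levels in smooth muscle cell-like cells, at 111 in sham and 128 in TAC-2w. Fibroblast-like cells had 72.5, 86.2, 40.9 and 51.9. Endothelial-like cells had 69.7, 46.6, 11.3 and 16.1. The smooth muscle cell-like range lay above that of fibroblast-like cells, while the fibroblast-like and endothelial-like ranges overlapped. In every other class and library the level was at most 4.57 CPM, which is 2 UMIs in the neutrophil-like cells of TAC-6w. No Tgfb2 UMI was seen among the 403385 UMIs of cardiomyocyte-like cells in sham, which allows a level of up to 7.44, or in those of TAC-2w, which allows up to 8.83.

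Tgfb3 followed a like order without the endothelial part. Smooth muscle cell-like cells had 85.7 in sham and 179 in TAC-2w, and fibroblast-like cells had 53.9, 57.6, 127 and 71.9. These ranges overlapped each other and lay above all other classes, of which none passed the 12.6 of macrophage-like cells in TAC-4w. Endothelial-like cells had 5.64 to 10.3.

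**Figure D1:**
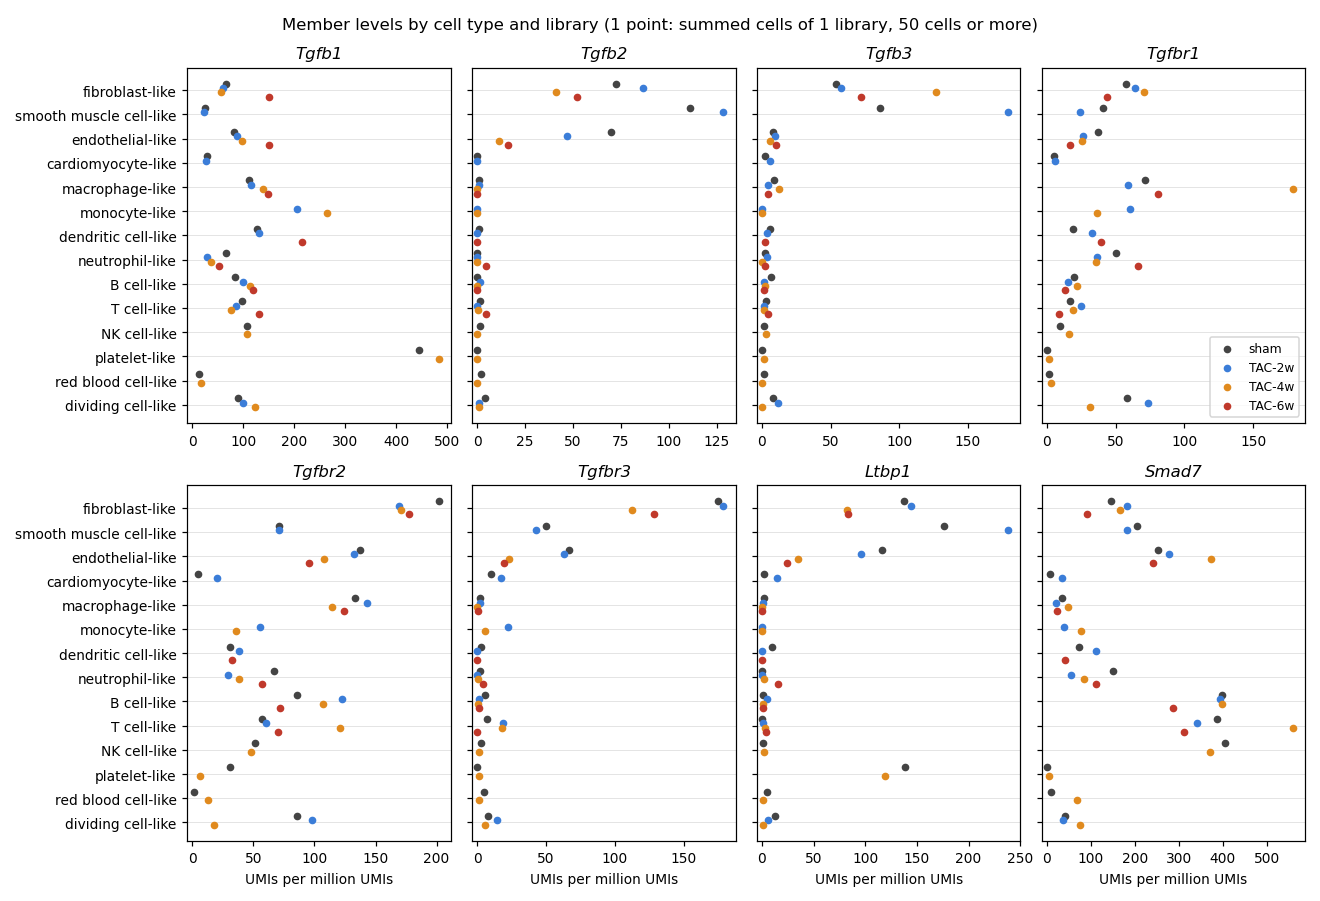
Levels of the 8 genes by cell class (rows) on a linear scale in CPM, where each point is the summed cells of 1 library with 50 cells or more and colours mark the conditions. Tgfb1 points reach 445 and 484 in platelet-like cells, Tgfb2, Tgfb3, Tgfbr3 and Ltbp1 points sit near 0 in most blood-derived classes, and Smad7 points are farthest right in T cell-like, NK cell-like and B cell-like cells.

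The levels of Tgfbr1 and Tgfbr2 overlapped between several classes. Tgfbr1, the type I receptor kinase, was at 71.5, 58.7, 179 and 80.5 in macrophage-like cells, and at 57.6, 63.9, 70.4 and 43.6 in fibroblast-like cells. The TAC-4w macrophage-like value was far above the rest, and apart from it these ranges overlapped. Tgfbr2, the ligand-binding type II receptor, was broadly carried, at 202, 169, 170 and 177 in fibroblast-like cells and 133, 143, 115 and 124 in macrophage-like cells. Endothelial-like cells had 138, 133, 108 and 95.3. The fibroblast-like range lay above the other classes, and the macrophage-like and endothelial-like ranges overlapped.

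Tgfbr3, the co-receptor, was mainly a fibroblast-like transcript, at 175, 179, 113 and 128. It reached 49.8 and 42.5 in the smooth muscle cell-like cells of sham and TAC-2w. Endothelial-like cells had 67.0, 63.2, 23.2 and 19.5. Macrophage-like cells had 0 to 1.88, so that the classes with high Tgfbr1 and Tgfbr2 were not all classes with Tgfbr3. Platelet-like cells, with the highest Tgfb1, had 0 and 1.34 for Tgfbr1 and 0 and 1.34 for Tgfbr3 in sham and TAC-4w.

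Ltbp1, whose protein holds latent TGF-beta in the matrix, was at 177 and 238 in the smooth muscle cell-like cells of sham and TAC-2w. It was at 138 and 119 in the platelet-like cells of sham and TAC-4w, the former from 9 UMIs. Fibroblast-like cells had 138, 144, 82.7 and 83.3, and endothelial-like cells 116, 96.3, 34.7 and 24.1. The platelet-like, fibroblast-like and endothelial-like ranges overlapped in that order. Platelet-like cells thus carried both Tgfb1 and Ltbp1, and neither Tgfb2 in any UMI nor Tgfb3 in more than 1.

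Smad7, the inhibitor that the pathway itself induces, had a pattern of its own. B cell-like cells had 399, 394, 398 and 287, and T cell-like cells 386, 341, 558 and 311. NK cell-like cells had 404 in sham and 371 in TAC-4w. Endothelial-like cells followed at 252, 277, 372 and 242, and these 4 ranges overlapped in turn. Fibroblast-like cells had 147, 181, 165 and 92.4 and macrophage-like cells 21.6 to 47.5. The class with the highest median among those present in all 4 libraries was B cell-like, and it became T cell-like when cells were averaged one by one or when only cells under 5% mitochondrial UMIs were kept.

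The classes present in numbers in all 4 libraries were then compared by edgeR's quasi-likelihood test on counts summed per library, with the library as a block. Of the 8 genes, 5 were higher and 2 lower in fibroblast-like than in macrophage-like cells at an adjusted p under 0.05, where 34.8% of all 12711 genes tested were higher and 30.9% lower. Tgfb2, Tgfbr3 and Ltbp1 were near 0 in macrophage-like cells. For Tgfb2 the fibroblast-like level was 88.6 times the macrophage-like level in sham (95% counting interval 48.1 to 185), 90.9 times in TAC-2w (54.1 to 166), and at least 19.5-fold and 61.3-fold higher in TAC-4w and TAC-6w, taking 3 UMIs as the limit of a count of 0. Tgfbr3 differed 93.1-fold in sham and 97.6-fold in TAC-2w, and Ltbp1 80.1-fold and 106-fold. The adjusted p was 5.96e-07 for Tgfb2. Tgfb3 (log2 difference 3.16 ± 0.32 SE, adjusted p 1.28e-05) and Smad7 (2.03 ± 0.20, adjusted p 1.07e-05) were also higher.

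Tgfb1 was lower in fibroblast-like than in macrophage-like cells, by a log2 difference of -0.96 ± 0.17 (SE, 4 libraries, edgeR adjusted p = 0.000726). The direction held in 3 of 4 libraries, and in TAC-6w the level in fibroblast-like cells was 1.02 times that in macrophage-like cells (0.931 to 1.12). Without the library term the adjusted p was 0.0502, the highest of 9 alternatives, which began at 2.46e-06. Tgfbr1 was lower too (-0.85 ± 0.26, adjusted p = 0.0154), in 3 of 4 libraries, and without the TAC-6w library its adjusted p was 0.0979, in a range of 0.0107 to 0.0979 over the alternatives. Tgfbr2 differed by 0.25 ± 0.11 (adjusted p = 0.0758, 0.0185 to 0.246 over 9 alternatives), with per-library ratios of 1.52, 1.18, 1.49 and 1.43.

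Against endothelial-like cells, 6 of the 8 genes were higher in fibroblast-like cells and 1 lower, with 26.3% of all genes higher and 23.2% lower. Tgfb3 led, with a log2 difference of 3.30 ± 0.34 (edgeR adjusted p = 3.21e-05), before Tgfbr3 at 2.00 ± 0.21 and Tgfbr1 at 1.24 ± 0.28. Tgfb2 (1.14 ± 0.28, adjusted p = 0.00742), Ltbp1 (1.01 ± 0.22) and Tgfbr2 (0.73 ± 0.12) were higher by less. The difference of Tgfb2 was not even over the libraries. Its ratio of levels was 1.04 in sham, with an interval that held 1 (0.912 to 1.19), and 1.85, 3.63 and 3.23 after TAC. For Ltbp1 the ratio ran from 1.19 in sham to 3.45 in TAC-6w. Without the library term Tgfb2 had an adjusted p of 0.161 (0.00259 to 0.161 over 9 alternatives) and Ltbp1 of 0.152 (0.00140 to 0.152). Smad7 was lower in fibroblast-like cells (-0.84 ± 0.19, adjusted p = 0.00430). Tgfb1 differed by -0.28 ± 0.17 (adjusted p = 0.215), and without the TAC-6w library by -0.43 with an adjusted p of 0.0341, the lowest of 9 alternatives that reached 0.734.

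Endothelial-like cells differed from macrophage-like cells in 7 of the 8 genes, 4 higher and 3 lower, with 30.7% of all genes higher and 28.3% lower. Smad7 was higher in endothelial-like cells by 2.87 ± 0.21 on the log2 scale (edgeR adjusted p = 1.67e-06), as were Ltbp1, Tgfb2 and Tgfbr3, which were near 0 in macrophage-like cells. Tgfbr1 (-2.09 ± 0.29), Tgfb1 (-0.68 ± 0.17) and Tgfbr2 (-0.48 ± 0.12) were lower. The Tgfb1 call was lost without the library term, with an adjusted p of 0.124 in a range of 0.00144 to 0.124. Tgfb3 differed by -0.14 ± 0.38 (adjusted p = 0.784), with per-library ratios from 0.448 in TAC-4w to 2.28 in TAC-2w. For Tgfb1 and Tgfbr2 the levels in CPM differed less than edgeR's scaled counts. The ratios of Tgfb1 were 0.743, 0.765, 0.703 and 1.02 (0.839 to 1.24), so it was not lower in endothelial-like cells of TAC-6w. Those of Tgfbr2 were 1.03, 0.928, 0.943 and 0.768.

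In the heart sections the ligands stood higher at TAC-4w or TAC-6w than in sham. Each condition had 1 section, so no test was possible, and the intervals cover counting error only. In a section, fewer cells of a type and less RNA per cell cannot be told apart. Tgfb2 was at 2.85 CPM in sham (interval 2.24 to 3.57), 2.75 in TAC-2w, 6.98 in TAC-4w and 6.50 in TAC-6w. The later TAC sections lay well above the other pair. By the labels that pair shared a batch and each later section had a batch of its own, so batch and time cannot be told apart here. The ratio to sham was 0.966 (0.722 to 1.3), 2.45 (1.88 to 3.24) and 2.28 (1.77 to 2.98).

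Tgfb1 was at 15.1 in sham, 12.0 in TAC-2w, 18.5 in TAC-4w and 24.3 in TAC-6w, so it was lowest at TAC-2w and highest at TAC-6w. Its ratios to sham were 0.798 (0.701 to 0.910), 1.22 (1.08 to 1.40) and 1.61 (1.44 to 1.81). Tgfb3 was at 4.65, 4.74, 5.92 and 8.16, with ratios of 1.02 (0.813 to 1.28), 1.27 (1.01 to 1.61) and 1.75 (1.43 to 2.17). Both were highest in TAC-6w, and the intervals of Tgfb3 in sham and TAC-2w overlapped.

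Among the receptors, Tgfbr2 was at 32.2 in sham, 24.0 in TAC-2w, 45.7 in TAC-4w and 38.8 in TAC-6w, with ratios of 0.746 (0.682 to 0.816), 1.42 (1.31 to 1.55) and 1.21 (1.11 to 1.31). Tgfbr1 was at 9.12, 8.14, 13.7 and 11.1, and its ratio at TAC-4w was 1.5 (1.28 to 1.77). Tgfbr3 was at 30.2, 26.1, 34.1 and 27.9, with ratios between 0.864 and 1.13. Tgfbr1 and Tgfbr2 were thus highest in the TAC-4w section, and Tgfbr3 varied least. Ltbp1 was at 21.6, 19, 14.5 and 19.4, and its TAC-4w ratio was 0.672 (0.593 to 0.761). Smad7 was at 10.3, 9.70, 15.5 and 10.0, with 1.5 (1.29 to 1.75) at TAC-4w.

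**Figure D2:**
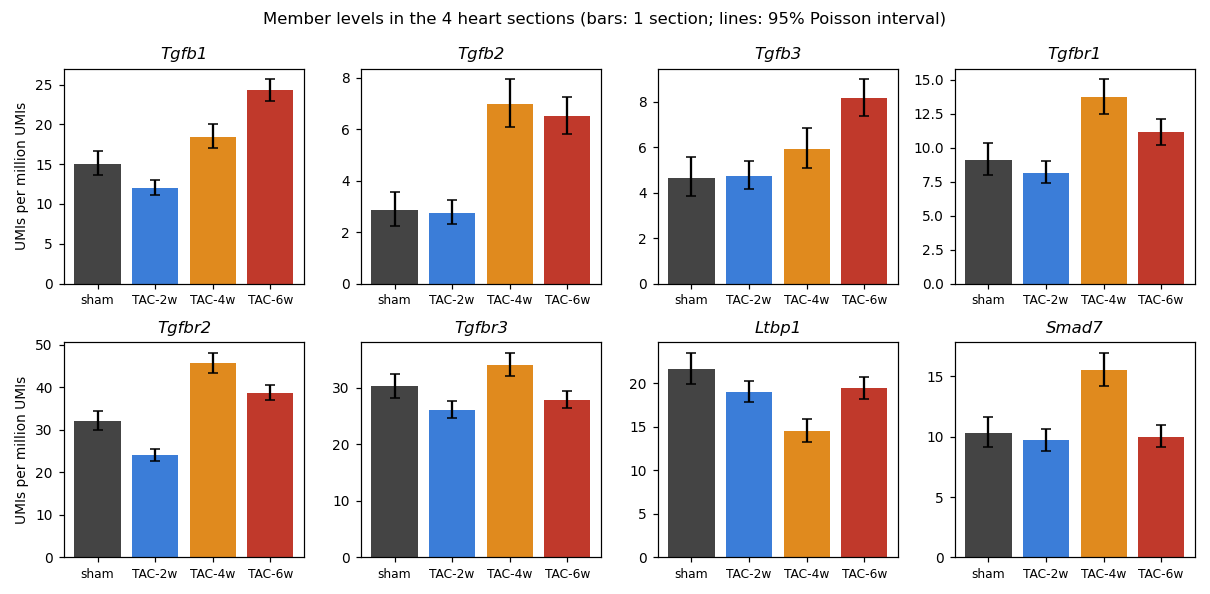
Levels of the 8 genes in the 4 sections in CPM, with 1 section per bar, 95% Poisson intervals and axes from 0. Tgfb2 stands at 6.98 and 6.50 in TAC-4w and TAC-6w against 2.85 in sham, whereas Ltbp1 is lowest in TAC-4w, at 14.5.

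A ratio of 1.5 or more was reached by 0 of the 8 genes at TAC-2w, 3 at TAC-4w (Tgfb2, Tgfbr1 and Smad7) and 3 at TAC-6w (Tgfb1, Tgfb2 and Tgfb3), and none was at or under the inverse of 1.5. Of all genes with at least 50 UMIs, 4.95%, 15.2% and 17.6% were past 1.5-fold higher and 3.27%, 2.5% and 0.962% lower. The median gene had a ratio of 1.03, 1.16 and 1.24, beside the lower mitochondrial share of the TAC sections, and the ratios of the 8 genes are to be read against that median. With median-of-ratios size factors, 8.72% were higher and 5.06% lower at TAC-4w, and 6.98% higher and 2.88% lower at TAC-6w. Tgfb2 then had ratios of 2.14 and 1.89, Tgfb1 1.33 and Tgfb3 1.45 at TAC-6w, and only Tgfb2 of the 8 genes was past 1.5-fold higher, while Ltbp1 at TAC-4w was past 1.5-fold lower, at 0.585. With mitochondrial and rRNA-like features out of the total, Tgfb2 had 2.05 and 1.98, Tgfb3 1.52 at TAC-6w, and Ltbp1 0.562 at TAC-4w. Tgfb1 at TAC-6w, at 1.40, and Tgfbr1 and Smad7 at TAC-4w, at 1.26 each, were then no longer past 1.5-fold, and Tgfbr2 at TAC-2w, at 0.639, was past it. Tgfbr3 at TAC-4w moved from 1.13 to 0.945 with these features left out and to 0.983 with size factors, Tgfbr2 at TAC-6w from 1.21 to 0.997 with size factors, and Tgfb3 at TAC-2w from 1.02 to 0.871 and 0.986.

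Markers of several cell types moved with these ratios. The summed level of the 6 fibroblast markers, all detected in each section, was 616 in sham and 604, 880 and 799, and that of the 6 macrophage markers 140, 127, 262 and 198. The 6 monocyte markers, of which Treml4 was at 0 in sham, had 37.9, 24.6, 43.1 and 77.3, and were lowest at TAC-2w and highest at TAC-6w, as Tgfb1 was. So were the 6 dendritic cell markers, at 7.92, 6.85, 9.99 and 12.8. This order was not particular to these sets. The 6 B cell markers had it too, at 7.96, 6.89, 8.33 and 11.7, as did the T cell, endothelial and pericyte markers given below. The 6 platelet markers, of the class with the highest Tgfb1 level, had 3.27, 5.33, 4.29 and 5.01. They were highest at TAC-2w, where Tgfb1 was lowest, and Treml1 among them was at 0 in sham. The 6 epicardial markers had 9.23, 4.90, 18.4 and 17.3, and were higher than sham at TAC-4w and TAC-6w, as Tgfb2 was. The 6 T cell markers had 3.19, 2.34, 8.98 and 12.9, and the 6 NK cell markers, of which Klre1 and Klra8 were at 0 in sham, 0.769, 0.861, 4.04 and 4.31. All 6 neutrophil markers together had 39.9, 10.0, 144 and 22.6. The 6 endothelial markers had 362, 279, 301 and 527, and the 6 smooth muscle cell markers 190, 134, 137 and 153, and the 6 pericyte markers 523, 463, 476 and 593. Fibroblast and macrophage markers were higher at TAC-4w and TAC-6w, as was Tgfb2, while smooth muscle cell markers, of the class with the highest Tgfb2 level, were lower. The marker levels too are to be read against the median gene, at 1.16 and 1.24 times sham at these times. Fibroblast markers were at 1.43 and 1.298 times sham, so at TAC-6w they lay little above that median. Macrophage markers were at 1.87 and 1.42 times sham. Tgfbr1 and Tgfbr2 were highest at TAC-4w, as fibroblast and macrophage markers were. At TAC-6w their ratios of 1.22 and 1.21 lay under the 1.24 of the median gene, and were 1.01 and 0.997 with size factors. The part of the cell types in the ratios was not tested.

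Inside fibroblast-like cells the picture differed from that of the sections, most of all for Tgfb2. Its ratio to the sham library was 1.19 (1.14 to 1.25) at TAC-2w, 0.565 (0.496 to 0.641) at TAC-4w and 0.717 (0.667 to 0.769) at TAC-6w, and in endothelial-like cells it was 0.669, 0.162 (0.117 to 0.220) and 0.231 (0.124 to 0.395). The sections thus had more Tgfb2 at TAC-4w and TAC-6w while both of these classes had less, a contrast that was not tested. In spots that were not rich in fibroblast markers the section ratio of Tgfb2 was 2.60 at TAC-4w and 2.17 at TAC-6w, and in those that were it was 1.67 and 2.80. Smooth muscle cell-like cells numbered 7 and 19 in the later libraries, too few for a level.

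Tgfb1 in fibroblast-like cells had ratios of 0.900 (0.854 to 0.949), 0.849 (0.758 to 0.948) and 2.30 (2.18 to 2.42), the last from libraries of the same batch. The TAC-4w ratio turned to 1.3 (1.14 to 1.47) without the Gdf10-led cluster, one of 3 in this class. In endothelial-like cells the TAC-6w ratio was 1.84 (1.48 to 2.27) and in macrophage-like cells 1.33 (1.2 to 1.48). At TAC-6w, then, these 3 classes and the section had values above sham. At TAC-6w, fibroblast-like Ltbp1 had a ratio of 0.605 (0.572 to 0.639) and Smad7 of 0.631 (0.598 to 0.665), and Tgfbr3 had 0.733. Neither Ltbp1 nor Smad7 was past 1.5-fold when the cells were averaged one by one. Of the 8 genes, 0, 1 and 1 were past 1.5-fold higher in fibroblast-like cells and 0, 3 and 2 lower, where 2.21%, 13% and 7.39% of all genes were higher and 1.52%, 8.3% and 13.9% lower.

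**Figure D3:**
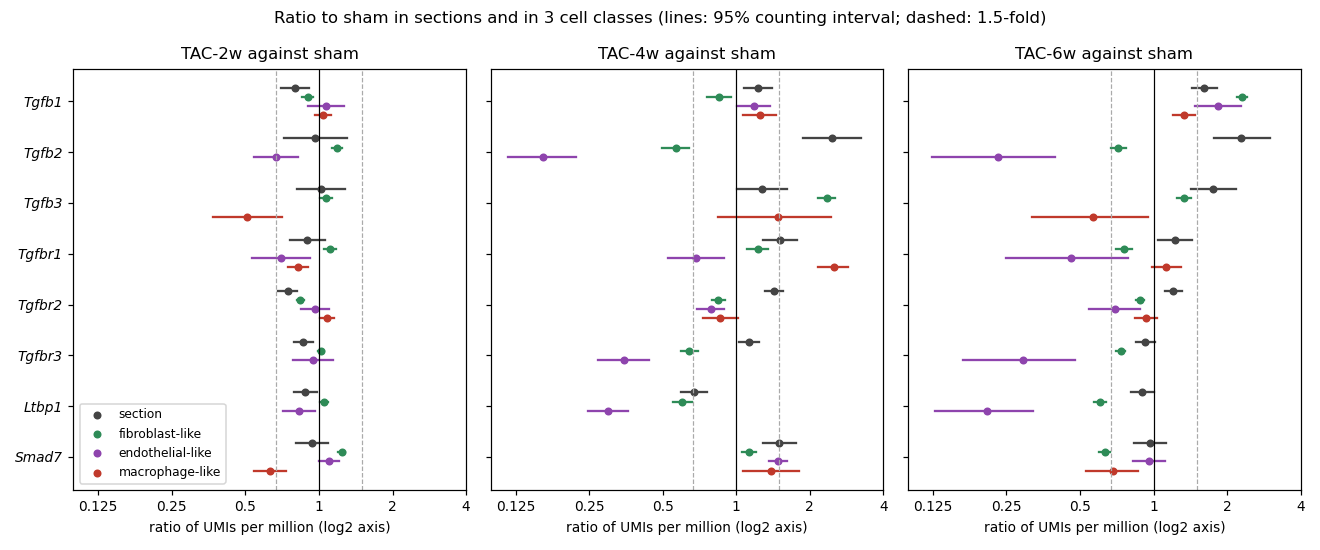
Ratios to sham of the 8 genes at each time after TAC on a log2 axis, in sections and in 3 cell classes, with 95% counting intervals and dashed lines at 1.5-fold in either direction. A class is drawn only where either sum held 50 UMIs. Tgfb2 lies right of 1 in the TAC-4w and TAC-6w sections (2.45 and 2.28) and left of 1 in fibroblast-like and endothelial-like cells at the same times.

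Fibroblast-like cells fell into 3 clusters that differed in these genes. The largest, led by Hmcn2, Ccl11 and Cxcl14, had the most Tgfb1, Tgfbr3 and Ltbp1, at 73.5, 194 and 150 in sham. The cluster led by Wif1 and Chad had the most Smad7, at 284 in sham against 114 in the largest cluster. The cluster led by Gdf10, Tnfrsf11b and Cpxm2 had the most Tgfb3, at 105, 149 and 193 in sham, TAC-2w and TAC-4w. The pathway genes were left out of the clustering.

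The Gdf10-led cluster made up 1.63% of fibroblast-like cells in sham, 2.26% in TAC-2w, 47.8% in TAC-4w and 0.139% in TAC-6w. The TAC-4w ratio of Tgfb3 in the whole class was 2.35 (2.17 to 2.54), and without this cluster it was 1.17. In the largest cluster Tgfb3 was at 48.8, 52.1, 56.3 and 71.4. The share of the Gdf10-led cluster in the class and the Tgfb3 level of the class were both highest in TAC-4w. Without the same cluster none of the 8 genes was past 1.5-fold lower at TAC-4w, and Tgfb2 had 0.677, Ltbp1 0.739 and Tgfbr3 0.826, while Tgfbr1 had 1.52. The TAC-4w ratio changed sides of 1 for 3 genes, Tgfb1 (0.849 to 1.3), Tgfbr2 (0.846 to 1.03) and Smad7 (1.13 to 0.846).

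TAC-6w held 4 cells of that cluster. Tgfb1 was highest there in each of the other 2. In the largest cluster it was at 73.5, 68.9, 106 and 166, and in the Wif1-led cluster at 36.4, 33.0, 43.0 and 59.1. Ltbp1 in the largest cluster was at 150, 161, 125 and 87.6 and Tgfbr3 at 194, 206, 180 and 136. Both were lowest in TAC-6w there.

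**Figure D4:**
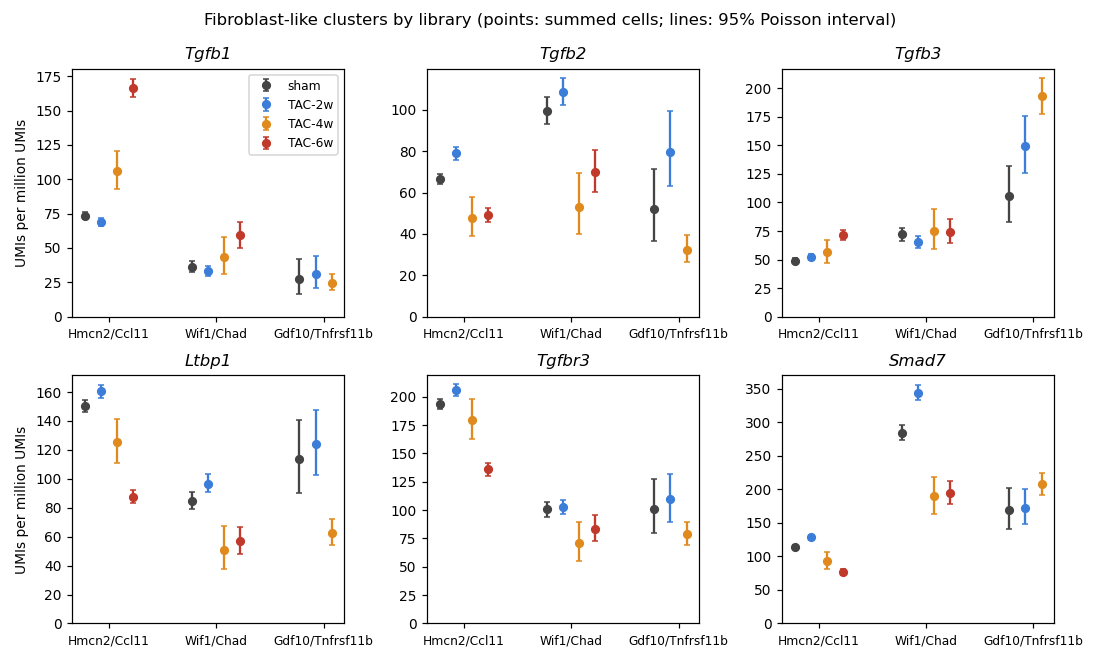
Levels of 6 of the genes in CPM in the 3 fibroblast-like clusters, named by their leading genes, with 1 point per library of 50 cells or more and 95% Poisson intervals. Tgfb1 reaches 166 in the Hmcn2-led cluster of TAC-6w, and Tgfb3 is highest in the Gdf10-led cluster, at 193 in TAC-4w.

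Endothelial-like cells also differed in make-up between libraries. A cluster led by H19, Npr3 and Plvap made up 36.0% of them in sham, 20.0% in TAC-2w, 0.418% in TAC-4w and 9% in TAC-6w, and it had more Ltbp1 (175 in sham) and Tgfb2 (91.9) than the other cluster (30.0 and 37.3). For the class, the later ratios to sham were 0.299 and 0.208 for Ltbp1 and 0.347 and 0.291 for Tgfbr3. Without the H19-led cluster, Ltbp1 had 1.15 and 0.434, and Tgfbr3 0.774 and 0.445. Tgfb2 in the remaining cluster was at 37.3, 16.5, 11.1 and 14.3, lower in all 3 TAC libraries than in sham, with ratios of 0.442, 0.298 and 0.383. Tgfb3 had too few UMIs in the whole class to be called past 1.5-fold at any time. None of the 8 genes of the whole class was past 1.5-fold at TAC-2w, against 4.05% of all genes higher and 3.43% lower. At TAC-4w 0 were higher and 3 lower, with 19.1% and 12.7% of all genes, and at TAC-6w 1 (Tgfb1) and 4 (Tgfb2, Tgfbr1, Tgfbr3 and Ltbp1), with 11.6% and 22.8%.

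In macrophage-like cells Tgfbr1 stood out at TAC-4w, with a ratio of 2.50 (2.17 to 2.88) from 186 cells, against 0.821 and 1.13 at TAC-2w and TAC-6w. It was the 1 gene of the 8 past 1.5-fold higher there, where 12.9% of all genes were higher and 12.9% lower. Tgfb2, Tgfbr3 and Ltbp1 had too few UMIs in macrophage-like cells to be called at any time. The shares of all genes count only genes with enough UMIs, so the counts out of 8 are not directly comparable with them. Smad7 had ratios of 0.632 (0.544 to 0.733), 1.39 (1.06 to 1.80) and 0.679 (0.529 to 0.862). Its TAC-4w ratio was 0.991 with no doublet removal and 0.946 with cells named by their own marker score. The leading genes of the macrophage-like class were Prss34, Folr2, Cxcl13, Ms4a7 and Cd163. With no doublet removal, Prss34, Mcpt8 and Il4 led the monocyte-like cluster instead, and the macrophage-like cells of TAC-4w numbered 166. The part of such cells in the TAC-4w ratios was not tested. Tgfbr2 stayed between 0.861 and 1.08. The numbers past 1.5-fold were 0 higher and 2 (Tgfb3 and Smad7) lower at TAC-2w (1.51% and 1.08% of all genes) and 0 and 1 (Tgfb3) at TAC-6w (4.75% and 17.0%).

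The placing of the genes within sections was read from the 10% of spots of each section with the largest share of 6 cell type markers, against the other spots. In fibroblast marker-rich spots, 6 of the 8 genes were higher by edgeR with the section as a block, where 8.83% of all genes were higher and 9.35% lower. Tgfb3 was at 9.23, 6.20, 11.4 and 14.3 in the rich spots and 4.12, 4.57, 5.30 and 7.41 in the others (log2 difference 0.70 ± 0.14 SE, adjusted p = 0.000186). Tgfbr2 was at 55.0, 35.8, 67.9 and 55.2 against 29.5, 22.6, 43.2 and 36.8 (0.48 ± 0.06, adjusted p = 4.37e-08). Both were higher in the rich spots of every section, although the TAC-2w interval of Tgfb3 held 1, at 1.36 (0.898 to 1.99). Ltbp1 was higher by 0.48 ± 0.08 (adjusted p = 1.12e-05), also in 4 of 4 sections.

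Tgfb2 (0.54 ± 0.17, adjusted p = 0.0191), Tgfbr1 (0.36 ± 0.11, adjusted p = 0.0213) and Tgfbr3 (0.22 ± 0.07, adjusted p = 0.0238) were the weaker calls in fibroblast marker-rich spots. Each was above the other spots in 4 of 4 sections, but some intervals held 1. For Tgfb2 these were sham, at 1.66 (0.816 to 3.12), and TAC-4w, at 1.07 (0.669 to 1.64). For Tgfbr1 it was TAC-6w, at 1.25 (0.960 to 1.61). With DESeq2 their adjusted p were 0.228, 0.174 and 0.210, and leaving out the TAC-6w section took Tgfb2 to 0.529 and Tgfbr3 to 0.152. Leaving out TAC-2w took Tgfb2 to 0.0768 and Tgfbr1 to 0.0747, leaving out TAC-4w took Tgfbr1 to 0.268, and leaving out sham took Tgfbr3 to 0.157. Over 10 alternatives the adjusted p ran from 0.00506 to 0.798 for Tgfb2, 0.0103 to 0.718 for Tgfbr1 and 0.00132 to 0.793 for Tgfbr3. Without the section term 0 of the 8 genes was called, and 7 of all genes were higher. Tgfb1 differed by 0.21 ± 0.09 (adjusted p = 0.132, and 0.0270 without TAC-6w) and Smad7 by -0.01 ± 0.12 (adjusted p = 0.963).

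In smooth muscle cell marker-rich spots Tgfb3 and Tgfb2 had the largest differences of the 8 genes, 0.92 ± 0.16 (edgeR adjusted p = 0.000122) and 0.73 ± 0.18 (adjusted p = 0.00459). Tgfb2 was at 3.36, 5.18, 11.9 and 11.7 in these spots and 2.79, 2.49, 6.45 and 6.14 in the others. It was thus higher at TAC-4w and TAC-6w than in sham on both sides of the split. Ltbp1 (0.36 ± 0.09) and Tgfbr2 (0.31 ± 0.07) were also higher, 4 of 8 in all, where 5.62% of all genes were higher and 4.99% lower. With DESeq2 the adjusted p was 0.0563 for Tgfb2 and 0.0710 for Ltbp1, without sham it was 0.0798 for Tgfbr2, and without TAC-4w 0.0865 for Ltbp1. The lowest over 10 alternatives were 0.000933 for Tgfb2, 0.00817 for Ltbp1 and 0.00197 for Tgfbr2, and without the section term none of the 8 genes was called. The rich spots of TAC-6w were shallow, with a median of 6570 UMIs against 21744 in the others.

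In macrophage marker-rich spots, 3 of the 8 genes were higher, with 6.83% of all genes higher and 6.16% lower. These were Tgfb3 (0.63 ± 0.15, edgeR adjusted p = 0.00155), Tgfbr1 (0.36 ± 0.12, adjusted p = 0.0280) and Tgfbr2 (0.29 ± 0.07, adjusted p = 0.00241). With DESeq2 the adjusted p of Tgfbr1 was 0.237 (0.0139 to 0.987 over 10 alternatives) and that of Tgfbr2 0.0521 (1.58e-05 to 0.987). The Tgfbr1 call was also lost when any of the sham, TAC-4w or TAC-6w sections was left out, and that of Tgfbr2 without TAC-2w (0.0776). For Tgfbr1 the edgeR adjusted p was 0.0552 with no filter on low counts. It was 0.0525 with 20% of spots called rich and 0.0514 with spots of at least 5000 UMIs. Without the section term none of the 8 genes was called. Tgfb1, although carried by macrophage-like cells, differed by 0.13 ± 0.10 (adjusted p = 0.479), with ratios per section of 1.42, 1.36, 1.21 and 1.02. The 3 kinds of rich spots share spots and are not independent of each other.

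**Figure D5:**
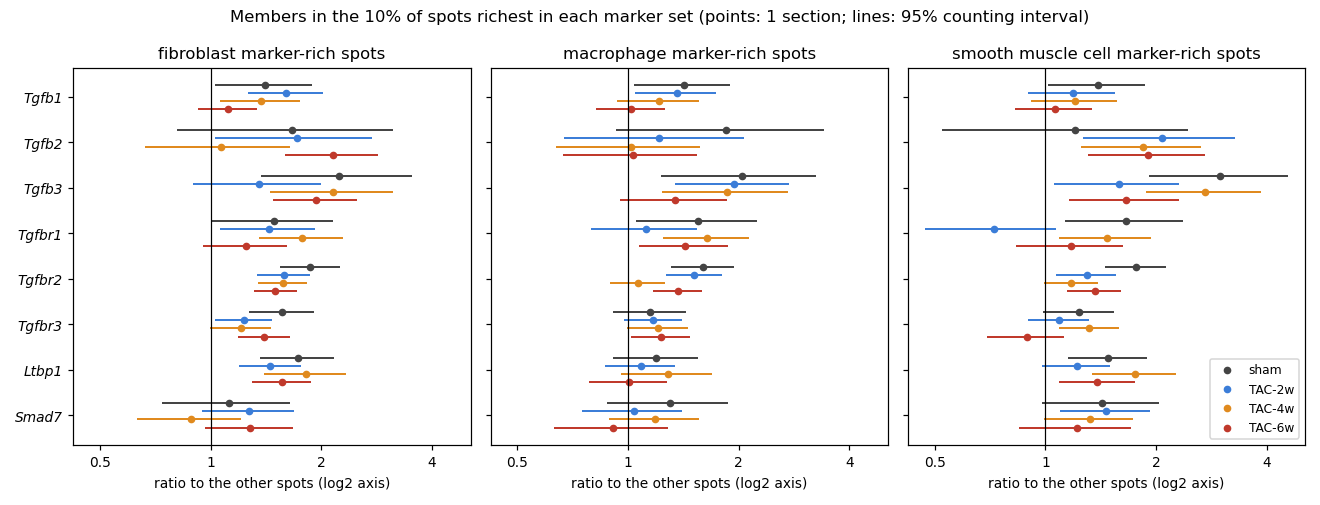
Ratios of the 8 genes in marker-rich spots to the other spots on a log2 axis, with 1 point per section and 95% counting intervals. Tgfb3 points lie right of 1 in all 12 pairs, with 2.24 in fibroblast marker-rich and 2.99 in smooth muscle cell marker-rich spots of sham. The Tgfb3 intervals of fibroblast marker-rich spots in TAC-2w and of macrophage marker-rich spots in TAC-6w hold 1. Smad7 points fall on both sides of 1 in fibroblast and macrophage marker-rich spots.

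Other genes of the pathway were taken from 4 lists, whose counts in the sections stand beside 4.95%, 15.2% and 17.6% of all genes past 1.5-fold higher and 3.27%, 2.5% and 0.962% lower. Of the 16 latency and activation genes, 15 had enough UMIs in the sections, and 0, 3 and 8 were past 1.5-fold higher and 3, 2 and 0 lower. Their median ratio was 0.788, 1.11 and 1.67, beside 1.03, 1.16 and 1.24 over all genes. At TAC-6w Ltbp2, of the same gene family as Ltbp1, went from 2.69 in sham to 9.71. Fbn1, the fibrillin that holds the latent complexes, went from 31.8 to 79.5, and Emilin1, which limits ligand maturation, from 17.9 to 36.2. Ltbp1 itself had a TAC-6w ratio of 0.899, unlike Ltbp2 at 3.61 (2.80 to 4.71). These mRNA levels do not show how much latent TGF-beta the matrix held. In fibroblast-like cells Ltbp2 was at 34.1 in sham and 52.7, 223 and 109 after TAC, and Lrrc32, a cell-surface tether of latent TGF-beta, at 74.4 in TAC-6w against 28.3.

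Of the 19 matrix and other target genes, 14 to 16 had enough UMIs in the sections. At TAC-2w 0 were past 1.5-fold higher and 5 lower (4.95% and 3.27% of all genes), at TAC-4w 7 and 3 (15.2% and 2.5%), and at TAC-6w 12 and 0 (17.6% and 0.962%), with median ratios of 0.803, 1.49 and 2.28. Cilp was at 9.27 in sham and 57.5 in TAC-6w, a ratio of 6.20 (5.44 to 7.11), the cartilage matrix gene Comp at 1.35 and 6.36, and the matricellular gene Postn at 23.8 and 106. Ccn2 (connective tissue growth factor) was at 37.5 in sham and 153 in TAC-4w, a ratio of 4.08 (3.81 to 4.38). In fibroblast-like cells 10 of 18 were past 1.5-fold higher and 3 lower at TAC-4w, beside 13% and 8.3% of all genes. At TAC-6w 6 of 18 were higher and 1 lower, beside 7.39% and 13.9%. Comp was at 13.9 times sham in the TAC-4w library, where the Gdf10-led cluster had 2992 and the largest cluster 38.4 CPM.

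Of the 12 Smads and regulators, 0, 2 and 2 were past 1.5-fold higher in the sections and none lower, shares near those of all genes (15.2% and 17.6% at the later times). They were the repressor gene Tgif1 and the inhibitory Smad6 at TAC-4w, with 2.35 and 1.75, and Tgif1 and the feedback inhibitor Pmepa1 at TAC-6w, with 1.88 and 1.83. In fibroblast-like cells Pmepa1 was at 763 in sham and 1191 in TAC-6w, a ratio of 1.56 (1.53 to 1.59), whereas the inhibitor Smad7 was at 0.631 there. Of the 10 other receptors and co-receptors, 8 or 9 had enough UMIs, and 1, 0 and 3 were past 1.5-fold higher and none lower, beside 4.95%, 15.2% and 17.6% of all genes higher. At TAC-6w these were Cd109 (4.52), Bambi (1.79) and the endothelial co-receptor gene Eng (1.53).

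The genes whose levels ran closest to each of the 8 were sought over 42 sums of cell class and library, which share libraries and depth. By Pearson's r of log2 levels, Pomgnt2 (0.943), Fzd3 (0.933) and Slc2a10 (0.932) were closest to Tgfb2, Efemp2 (0.896) to Tgfb3, and Cald1 (0.936) to Ltbp1. For Tgfb1 it was B2m (0.847), for Tgfbr1 Fnip1 (0.897), for Tgfbr2 Sp1 (0.866), for Tgfbr3 Bmp1 (0.886) and for Smad7 the long RNA gene 4930523C07Rik (0.898).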

How the data were processed

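The deposited tables hold UMI counts per gene and barcode, made by the authors with Cell Ranger 7.0.0 and Space Ranger 1.3.1 on mm10 per the labels, and were used as deposited, as raw counts. The file headers name other versions of both tools. The labels describe a preparation of nuclei for samples that they also call single-cell libraries, and the text says cells.

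Cells with 200 to 6000 genes, 500 to 30000 UMIs and under 15% mitochondrial UMIs were kept, and the 3.2% with the highest doublet score per library were removed (Scrublet in scanpy 1.11.5, expected rate 7%). Clusters (Seurat 5.3.0, 3000 variable genes without the listed pathway genes, 30 components, resolution 0.25) were named from 6 markers per type, of which at least 3 had to be detected. Counts were summed per cell class and library, with at least 50 cells, or per section. Intervals are 95%, exact Poisson for levels and exact conditional binomial for ratios, and cover counting error only. A ratio was called past 1.5-fold with at least 50 UMIs in either sum. Each condition had 1 section and 1 library, so conditions were not tested. Cell classes and the 10% most marker-rich spots were compared by edgeR 4.0.16 (quasi-likelihood, TMM scaling, Benjamini-Hochberg adjustment over all genes) with the library or section as a block, because both sums came from the same library or section. The p-values measure the spread over these 4 libraries or sections, which need not be separate animals. DESeq2 1.42.0 served as an alternative, beside other scalings, cell filters and naming, no block and each library or section left out. On simulated counts for the fibroblast marker-rich spots (12406 genes), 161 of 200 genes changed 2-fold were recovered, with 6 false calls. The simulated counts had the same mean profile in every section and a fixed spread, whereas the real sums differ between sections. The numbers recovered and falsely called therefore need not hold for the real sums. The genes followed here that were called in those spots differed by less, from a log2 difference of 0.22 (Tgfbr3) to 0.70 (Tgfb3). Recovery of differences of that size was not tested.

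The 8 genes and the lists of other pathway genes were chosen with earlier results of these data known. All 8 were named, with up to 3 genes per list and comparison that had the largest absolute log2 ratio, and per gene the 3 most alike by Pearson's r of log2(level + 1), of which 1 is printed for most, among genes with at least 500 UMIs. One listed symbol, Ctgf, is an older name of Ccn2 and matched no row. R 4.3.3 and Python 3.11.15 were used, with scipy 1.17.1 for intervals, numpy 2.4.6 and pandas 2.3.3 for tables and matplotlib 3.10.9 for figures.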

Additional observations from a re-analysis of the deposited data

How the results depend on the processing

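Of 1296 values recomputed under an alternative, 441 were ratios to sham above 0, and 25 of these changed sides of 1. Of the 25, 24 were ratios not past 1.5-fold, and 1 was past it: the TAC-4w ratio of Ltbp1 in endothelial-like cells was 1.15 without the H19-led cluster, against 0.299 with it. Of 456 log2 differences of single genes, 10 changed sign, none of them called, 41 lost a call and 4 gained one. The counts that changed are as follows. In the sections, leaving mitochondrial genes out of the total gave 1 of the 8 genes past 1.5-fold lower at TAC-2w against 0, and 1 higher and 1 lower at TAC-4w against 3 and 0. Median-of-ratios size factors gave 1 higher and 1 lower at TAC-4w and 1 higher at TAC-6w against 3, and spots with at least 5000 UMIs gave 1 lower at TAC-4w. With no count minimum, all genes past 1.5-fold higher and lower were 2978 and 2808 at TAC-2w against 565 and 373, 4711 and 2082 at TAC-4w against 1702 and 280, and 5484 and 1651 at TAC-6w against 2108 and 115.

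In fibroblast-like cells 0 of the 8 genes were lower at TAC-6w, against 2, when cells were averaged one by one, and 0 at TAC-4w, against 3, without the Gdf10-led cluster. In macrophage-like cells 2 were higher at TAC-4w against 1 with a mitochondrial share under 5%, no doublet removal or naming by each cell's own score, and 2 were lower at TAC-6w against 1 with mitochondrial genes left out, the 5% limit or own-score naming. In endothelial-like cells 1 was lower at TAC-2w against 0 when cells were averaged, named by their own score or taken without the H19-led cluster, 1 was higher at TAC-4w against 0 with no doublet removal, and 1 was lower there against 3 without the H19-led cluster. The exclusions of these 2 clusters were chosen after seeing the data.

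Without the replicate block, genes higher and lower fell from 1095 and 1160 to 7 and 0 in fibroblast marker-rich spots, from 847 and 764 to 23 and 0 in macrophage marker-rich spots and from 693 and 615 to 51 and 0 in smooth muscle cell marker-rich spots, and 0 of the 8 genes were called in any of these, against 6, 3 and 4. The sums are paired by section, which this alternative ignores. In fibroblast-like against macrophage-like cells 1 of the 8 genes was lower without the block, against 2. DESeq2 called 630 and 700 genes, 3 of the 8 among them, in fibroblast marker-rich spots, 458 and 376, with 1 of the 8, in macrophage marker-rich spots, and 417 and 359, with 2 of the 8, in smooth muscle cell marker-rich spots. With no filter on low counts 1004 genes were lower in smooth muscle cell marker-rich spots. Leaving out 1 library gave 1 to 2 of the 8 genes lower in fibroblast-like cells than in macrophage-like cells, and 1 to 2 than in endothelial-like cells. Leaving out 1 section gave 473 to 654 lower genes in macrophage marker-rich spots, with 2 of the 8 higher, 369 to 548 in smooth muscle cell marker-rich spots, with 3 to 4 of the 8 higher, and 4 to 5 of the 8 higher in fibroblast marker-rich spots. The class with the highest median level became T cell-like for Smad7 when cells were averaged or held to 5% mitochondrial UMIs, and dendritic cell-like instead of macrophage-like for Tgfb1 with own-score naming, among classes present in all 4 libraries. The cause of these shifts was not tested. Depth limits the low values most: the sham section held 74 UMIs of Tgfb2, and a ratio to sham rests on 1 section or library.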

Other observations

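Tgfb2 and Tgfb3 were also read against Nppa, the atrial natriuretic peptide gene that overloaded cardiomyocytes switch on. The split was chosen after the data were seen, so no test was made. In the 10% of spots with the largest share of Nppa UMIs, Tgfb2 was at 4.06 CPM (UMIs for every 1000000 UMIs) in sham and at 7.04, 10.3 and 11.3 after TAC, against 2.73 in sham and 2.40, 6.58 and 6.11 in the other spots. The ratio of rich to other spots was 1.49 (0.651 to 3.00) in sham, from 9 UMIs, and 2.94 (1.84 to 4.54), 1.56 (1.06 to 2.24) and 1.84 (1.29 to 2.57) after TAC. Only the sham interval held 1. Against the same spots of sham, Tgfb2 had ratios of 1.73, 2.53 and 2.77 in the Nppa-rich spots and 0.877, 2.41 and 2.24 in the others, so the TAC-4w and TAC-6w values lay above sham on both sides. Tgfb3 in the Nppa-rich spots was at 2.38, 1.42, 1.91 and 1.66 times its level in the others of its section, and the TAC-2w interval held 1 (0.886 to 2.16). The Nppa-rich spots were shallower in sham, with a median of 10006 UMIs against 16017, and in TAC-6w, with 9585 against 21131. In TAC-4w they were deeper, with 32563 against 27186. Cardiomyocyte-like cells held no Tgfb2 UMI in sham or TAC-2w, the libraries with enough of them, and those cells were led by atrial genes. The highest levels that these counts allow, given above, lie above the Tgfb2 level of every section. The TAC-4w and TAC-6w libraries held 23 and 10 such cells, too few for a level. Whether cardiomyocytes carried the Tgfb2 of the sections was therefore not tested.

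The target genes gave different values in 2 cell classes of TAC-4w. In endothelial-like cells 10 of 12 target genes with enough UMIs were past 1.5-fold lower and 1 higher, beside 12.7% of all genes lower and 19.1% higher, with a median ratio of 0.144. In fibroblast-like cells 10 of 18 were higher and 3 lower, beside 13% and 8.3% of all genes, with a median of 1.62. The difference between the classes was not tested. The H19-led endothelial-like cluster, 36.0% of the class in sham, made up 0.418% of it in TAC-4w. The Gdf10-led fibroblast-like cluster, 1.63% of its class in sham, made up 47.8% of it in TAC-4w. The part of either cluster in these values was not tested.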
